A study of Mus musculus with 12 samples.

Results

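The T cell receptor (TCR) repertoire of spleen CD8 T cells under BF10 was set against that under control IgG. The comparison used 2 of the 12 libraries of the series, 1 on each side, and they held 279919 of the 1502315 clonotype lines listed over spleen, tumor and tumor-draining lymph node (tdLN). BF10 is a fusion protein in which human IL-10 was joined to an antibody that blocks the receptor CSF1R, which macrophages need, and the series also holds mice given IL-10-Fc or the antibody alone (αCSF1R), with 1 library per treatment and tissue. All mice were wild-type C57BL/6 adults that carried the syngeneic oral squamous carcinoma line HNSCC/Q1-2, and every group received 3 doses of its protein at intervals of 3 days. A dose of 30 mg/kg is in the labels of all treatments, whereas the study's methods scaled the mass of each protein to its molecular weight. CD8 T cells were taken with magnetic microbeads, and 100 ng of RNA was used for each library. The RNA of 3 mice was pooled, so that each treatment had 1 library without replicates, no test was possible and the spread between mice is unknown. The files hold only TCR chains, so that the CD8 label could not be checked against CD8 transcripts.

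A TCR β chain is built by joining a V, a D and a J segment, and an α chain by joining a V and a J segment. The join is trimmed and filled with untemplated bases, and the loop it encodes, the CDR3, touches the peptide on an MHC molecule. V and J usage in a naive pool follows the locus and thymic selection, whereas a responding clone leaves many copies of 1 joined sequence. Each cDNA carried a unique molecular index (UMI), and a UMI was counted when at least 3 reads held it. A clonotype is the set of UMIs of 1 chain with the same V, J and CDR3 residues. UMIs count RNA molecules, so more cells of a clone and more receptor RNA per cell cannot be told apart. Intervals of shares are exact 95% intervals, and those of ratios are 95% normal approximations on the log scale. Both cover counting error only. UMIs of 1 cell are not independent, so the intervals are narrower than the true error.

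The sequences below are the CDR3 coding sequences of the clonotypes on which the comparison of the largest clones turned. Capitals mark the bases that matched neither the 3′ end of the germline V segment nor the 5′ end of the J segment in GRCm38. The first 5 were the largest β chains of the BF10 spleen, the next 3 the largest of the control spleen, and the last line is the leading control variant (9 of 31 UMIs) of a β chain whose residues were listed in all 12 libraries.
Trbv5-Trbj1-4, BF10: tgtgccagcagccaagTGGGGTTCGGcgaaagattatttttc
Trbv26-Trbj1-3, BF10: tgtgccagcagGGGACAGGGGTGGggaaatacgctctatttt
Trbv13-1-Trbj1-1, BF10: tgtgccagcagGaacacagaagtcttcttt
Trbv16-Trbj2-3, BF10: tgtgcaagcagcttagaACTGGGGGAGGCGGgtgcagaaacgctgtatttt
Trbv1-Trbj1-1, BF10: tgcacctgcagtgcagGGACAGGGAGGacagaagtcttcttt
Trbv29-Trbj1-1, control: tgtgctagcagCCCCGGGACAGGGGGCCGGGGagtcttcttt
Trbv29-Trbj2-5, control: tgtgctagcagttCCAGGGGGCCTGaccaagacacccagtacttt
Trbv15-Trbj2-2, control: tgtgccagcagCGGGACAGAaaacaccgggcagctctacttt
Trbv1-Trbj1-1, public: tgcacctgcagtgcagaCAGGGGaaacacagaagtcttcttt
The α chains shown are the most abundant ones of both spleens (the first 2 lines) and 3 that stood higher among the 6 largest of the BF10 spleen.
Trav11 or Trav11d-Traj18, invariant NKT type: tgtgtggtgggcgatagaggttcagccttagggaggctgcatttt
Trav14 copies-Traj22: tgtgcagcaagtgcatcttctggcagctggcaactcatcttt
Trav16n-Traj42: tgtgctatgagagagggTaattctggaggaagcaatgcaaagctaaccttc
Trav7d-2-Traj31: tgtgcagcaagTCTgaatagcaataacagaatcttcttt
Trav6d-6-Traj30: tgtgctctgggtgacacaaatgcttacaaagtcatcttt
The γ and δ chains shown were the largest of either spleen, and their bases were not compared with germline ends.
Trgv6-Trgj1: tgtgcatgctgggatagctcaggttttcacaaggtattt
Trgv2-Trgj2: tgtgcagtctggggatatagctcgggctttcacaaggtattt
Trdv4-Trdj2: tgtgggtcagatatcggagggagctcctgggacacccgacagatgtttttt

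The control and BF10 libraries were of similar depth. They held 273833 and 275461 UMIs, of which 153435 and 150372 were β (TRBC) and 115039 and 118744 were α (TRAC). UMIs with at least 7 reads made up 40.9% and 38.8% of them. The IL-10-Fc and αCSF1R spleens, which share the control library with BF10 when set against it, held 290112 and 269407 UMIs, and 36.6% and 57.3% of these had at least 7 reads.

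The main difference in β chains was a smaller share of Trbv29 in the BF10 spleen. Trbv29 (chr6:41271394-41271881, GRCm38; Vβ7 in the older naming) was the most used β V gene of the control spleen, at 13.2% of TRBC UMIs (interval 13.0 to 13.3). It stood at 9.39% (9.24 to 9.54) under BF10, at 14.2% under IL-10-Fc and at 13.3% under αCSF1R. The BF10 value was the lowest of the 4 spleens, and the other 3 lay close together. The ratio of BF10 to control was 0.713 (0.699 to 0.728). Of the 20 Trbv genes with a mean share of at least 0.5%, Trbv29 was the only one past the fold limit of 25% higher or 20% lower (5% of those compared). No Trbv gene passed in the IL-10-Fc or αCSF1R spleen against the same control (0% of 20 in each). Counted once per clonotype the ratio of Trbv29 was 0.802, just inside the fold limit.

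The genes next to Trbv29 in order also stood lower under BF10, by less. Trbv3 made up 7.87% of control and 6.57% of BF10 TRBC UMIs (ratio 0.835), with 7.74% and 8.57% under IL-10-Fc and αCSF1R. Trbv19 stood at 9.77% and 8.51% (ratio 0.871), with 10.2% and 11.4% in the same pair. The BF10 spleen was lowest of the 4 for Trbv29, Trbv3 and Trbv19 and for no other Trbv gene compared. Trbv1 (6.12% and 6.09%, ratio 0.996) and Trbv23 (0.562% and 0.571%, ratio 1.02) had intervals of the ratio that held 1. Trbv16, the next most used gene in the control after Trbv29, stood at 10.55% and 11.03% (ratio 1.05).

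Shares add up to 100%, so the difference of -3.78 percentage points in Trbv29 had to be made up elsewhere, and 16 of the 20 ratios were above 1. The largest were those of Trbv26 at 1.20 (2.84% and 3.41%), Trbv5 at 1.20 (2.70% and 3.24%), Trbv13-1 at 1.19 (4.69% and 5.59%), Trbv2 at 1.19 (1.38% and 1.64%) and Trbv4 at 1.17 (2.98% and 3.50%). Without the largest clonotype of each library that of Trbv5 was 1.14. For these 5 genes the BF10 spleen was the highest of the 4. With Trbv29 left out of the totals of both libraries, the ratios of the other 19 ran from 0.800 for Trbv3 to 1.15 for Trbv26. A list of 5 β genes that are deleted by endogenous Mtv superantigens in some other mouse strains (Trbv12-1, Trbv12-2, Trbv15, Trbv16 and Trbv26) had ratios of 1.05 to 1.20. It does not hold all such genes. Of the genes outside it, Trbv19 and Trbv29 stood lower, whereas Trbv13-3 (ratio 1.07) and Trbv17 (ratio 1.04) stood higher. The summed share of the 5 listed genes was 27.8% in the control and 29.9% in the BF10 spleen. Their median ratio of 1.08 lay beside a median of 1.07 over all 20 genes. The 5 β genes that pair with the invariant NKT α chain (Trbv1, Trbv13-1, Trbv13-2, Trbv13-3 and Trbv29) summed to 35.1% and 33.1%, with Trbv29 alone past the fold.

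**Figure D1:**
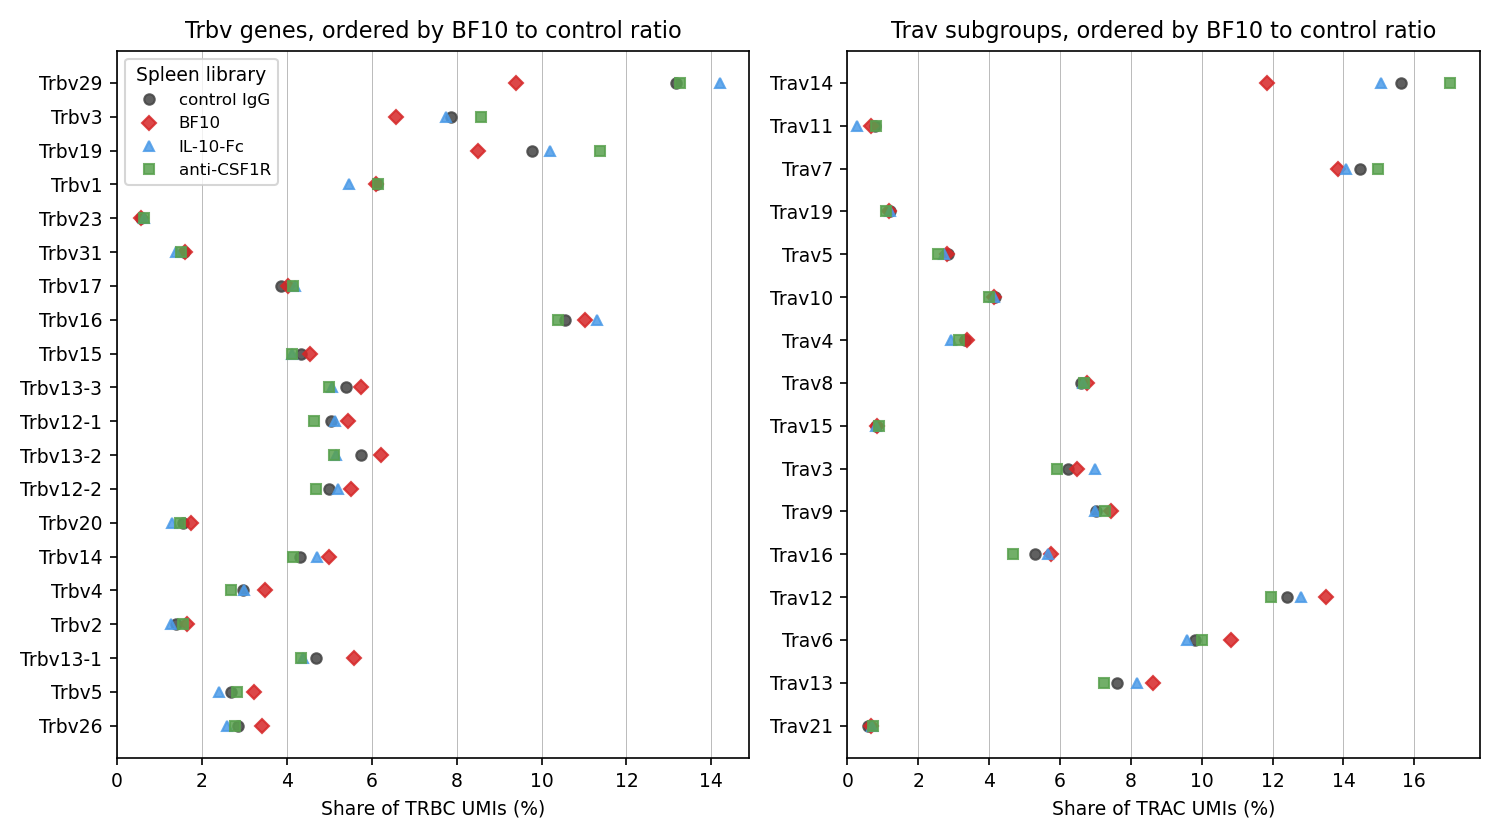
Share of TRBC UMIs by Trbv gene (left) and of TRAC UMIs by Trav subgroup (right) in the 4 spleen libraries, with 1 point for each pooled library and genes ordered by the ratio of BF10 to control. Trbv29 and Trav14 head the panels, and their BF10 points, at 9.39% and 11.8%, lie to the left of the other 3 libraries.

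In α chains the same position was taken by the Trav14 subgroup. It made up 15.6% of TRAC UMIs in the control (15.4 to 15.8) and 11.8% (11.7 to 12.0) in the BF10 spleen, against 15.1% under IL-10-Fc and 17.01% under αCSF1R. The ratio of BF10 to control was 0.758 (0.743 to 0.774), and BF10 was again the lowest of 4. Trav14 was the only subgroup of 16 past the fold limit under BF10 (6.25%), and counted once per clonotype its ratio of 0.854 lay inside it. Under IL-10-Fc Trav11 alone passed (6.25% of 16), and under αCSF1R none did (0%). The mouse Trav locus holds near-identical copies, 9 of them annotated for Trav14 on chromosome 14 between 52855614 and 53763694. Of the TRAC UMIs, 27.3% in the control and 24.6% in the BF10 library listed several copies, which is why subgroups were compared. All 8 assignments within Trav14 with a mean share of at least 0.5% had a ratio under 1, from 0.660 for Trav14-3 or Trav14d-2 to 0.857 for Trav14d-1.

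Other Trav subgroups differed less. Trav7, the second most used in the control, stood at 14.5% and 13.8% (ratio 0.958) and Trav12, the third, at 12.4% and 13.5% (ratio 1.09). The lowest ratios after Trav14 were those of Trav11 at 0.831 (0.788% and 0.654%), Trav7, Trav19 at 0.967 and Trav5 at 0.987. The highest were those of Trav21 at 1.15 (0.582% and 0.671%), Trav13 at 1.13 (7.61% and 8.63%), Trav6 at 1.10, Trav12 and Trav16 at 1.09. With Trav14 left out of the totals, the ratios of the other 15 ran from 0.795 for Trav11 to 1.10 for Trav21.

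J usage was close in the 2 libraries. None of 12 Trbj segments and none of 39 Traj segments passed the fold limit (0% in both). Against the same control, IL-10-Fc passed with 0% of Trbj and 2.56% of Traj segments and αCSF1R with 0% of both. Trbj2-7 was the most used β J segment (20.4% in the control and 21.3% under BF10), followed by Trbj2-1 (14.1% and 13.6%) and Trbj2-5 (10.95% and 10.2%). The ratios ran from 0.914 for Trbj2-2 (5.39% and 4.92%) to 1.08 for Trbj2-3 (8.71% and 9.43%). The Trbj1 cluster, which lies nearer to the V genes, took 31.2% and 30.6% of UMIs, and the Trbj2 cluster 68.8% and 69.4%. In α chains Traj22 (7.74% and 7.36%), Traj30 (6.36% and 6.34%) and Traj31 (5.33% and 5.74%) led the control. Ratios ran from 0.856 for Traj18, the J segment of the invariant NKT chain (2.18% and 1.87%), to 1.10 for Traj12 (3.89% and 4.29%). The share of Traj41 to Traj61, which lie nearest to the V genes and are used first, was 19.2% and 19.3%, and that of Traj2 to Traj20 was 24.6% and 24.7%.

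The difference in Trbv29 was spread over its partners and lengths. With each of the 12 Trbj segments Trbv29 had a ratio below 1, from 0.597 with Trbj2-5 to 0.874 with Trbj1-5, and with all 12 the BF10 spleen was the lowest of 4. At each of the 8 CDR3 lengths that held a mean of at least 0.05% of TRBC UMIs the ratio lay between 0.629 and 0.791. Trav14 had a ratio below 1 with all 39 Traj segments compared, from 0.632 to 0.931, and BF10 was lowest of 4 with 37 of them. At its 8 CDR3 lengths the ratio of Trav14 ran from 0.643 to 0.903. Trbv3 stood lower with 11 of 12 Trbj segments and Trbv19 with 12 of 12. Single clones did not carry these differences. The largest Trbv29 clonotype held 0.584% of the Trbv29 UMIs in the control and 0.418% in the BF10 spleen, and the ratio without them was 0.714.

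Of 233 Trbv-Trbj pairs with a mean share of at least 0.05%, 3 stood higher and 5 lower by at least 1.5-fold under BF10 (3.43%). The shares past that fold were 2.62% under IL-10-Fc and 3.9% under αCSF1R. The lowest ratio was that of Trbv15-Trbj1-6, at 0.0789% and 0.0372% (ratio 0.472, interval 0.344 to 0.648), with 0.0431% and 0.0414% in the IL-10-Fc and αCSF1R spleens. For this pair the control stood apart from the other 3 spleens. The other 4 were Trbv29 with Trbj2-5 (1.69% and 1.01%), Trbj1-6, Trbj2-1 and Trbj2-2, at ratios of 0.597 to 0.665. The highest ratio was that of Trbv5-Trbj1-4, at 0.173% and 0.381% (2.21, interval 1.91 to 2.55). Its largest clonotype held 45.03% of the UMIs of the pair in the BF10 spleen, and the ratio without the largest clonotype of each library was 1.24. Trbv26-Trbj1-3 followed at 1.62 (0.183% and 0.297%), or 1.34 without the largest clonotypes, and Trbv2-Trbj1-1 at 1.61 (0.0697% and 0.112%), or 1.62 without them. Counted once per clonotype, Trbv5-Trbj1-4 (1.19), Trbv26-Trbj1-3 (1.34) and Trbv29-Trbj2-5 (0.723) lay inside the limit of 1.5-fold.

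**Figure D2:**
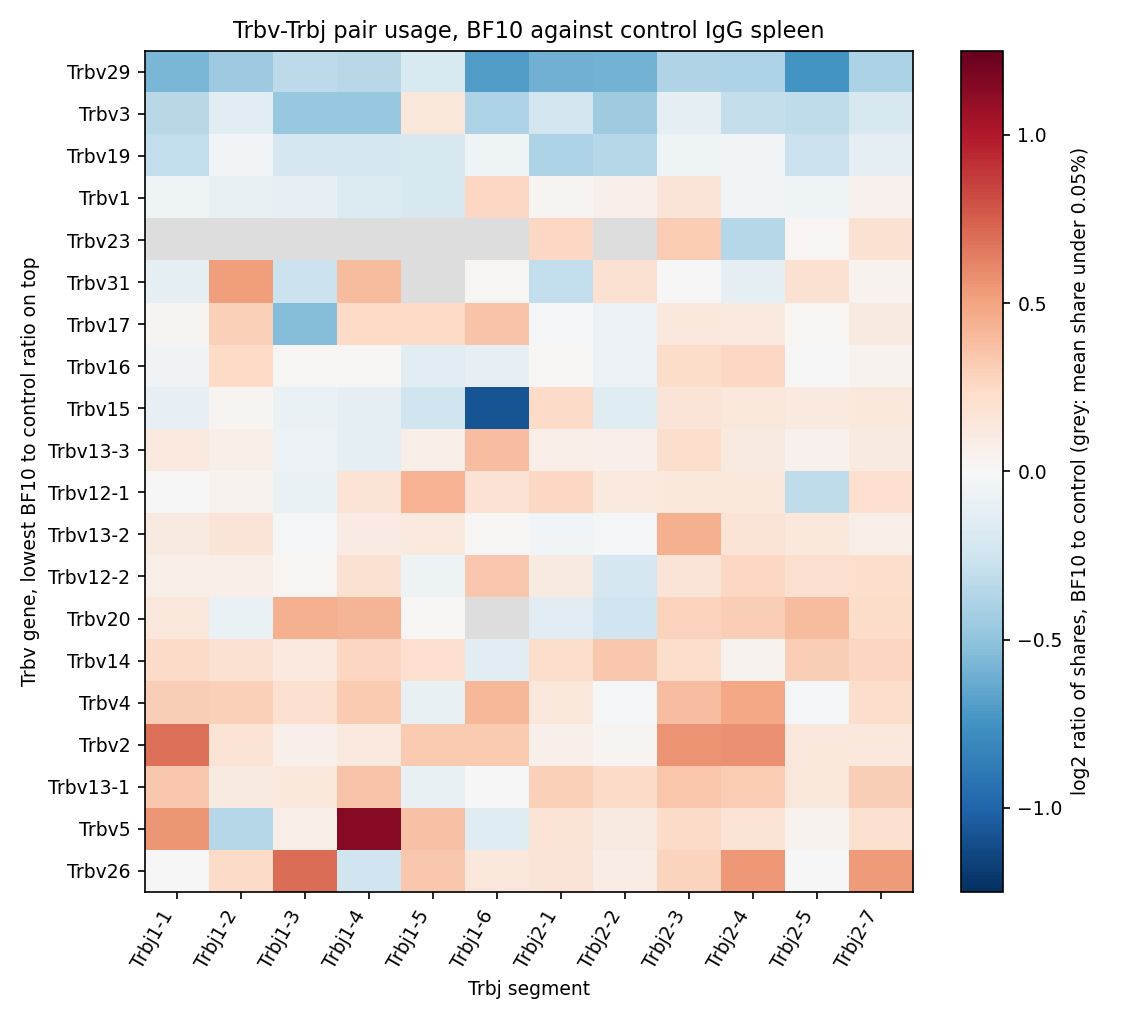
Ratio of pair usage in the BF10 to the control IgG spleen on a log2 scale for 20 Trbv genes (rows) and 12 Trbj segments (columns), with 1 pooled library on each side and pairs under a mean share of 0.05% in grey. The Trbv29 row is below 0 with all 12 Trbj segments, and the darkest red cell is Trbv5-Trbj1-4.

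Of 419 Trav-Traj pairs, 11 stood higher and 15 lower by at least 1.5-fold (6.21%), beside 5.48% under IL-10-Fc and 6.19% under αCSF1R. BF10 thus did not stand out in the number of such pairs. The lowest ratios were those of Trav3-Traj18 at 0.518 (129 and 69 UMIs), Trav10-Traj50 at 0.548 (76 and 43), Trav7-Traj5 at 0.589 (130 and 79), Trav6-Traj50 at 0.620 (125 and 80) and Trav15-Traj34 at 0.628 (71 and 46). The highest were those of Trav13-Traj56 at 2.04 (84 and 177 UMIs), Trav16-Traj38 at 1.78 (48 and 88), Trav16-Traj42 at 1.76 (206 and 374), Trav13-Traj45 at 1.75 (195 and 352) and Trav3-Traj50 at 1.66 (55 and 94). In Trav16-Traj42 1 clonotype held 161 of the 374 BF10 UMIs, and the ratio without the largest clonotypes was 1.06. In Trav13-Traj56 the ratio without them was 2.01. With UMIs of at least 7 reads neither Trav3-Traj18 (0.855) nor Trav13-Traj56 (1.39) passed 1.5-fold.

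The difference in Trbv29 and Trav14 widened with clonotype size. Among clonotypes of 1 UMI, Trbv29 held 12.6% of the control and 10.8% of the BF10 UMIs (ratio 0.857). Among clonotypes of 6 to 10 UMIs it held 22.0% and 10.8% (ratio 0.488), and among those of over 10 UMIs 30.4% and 12.0% (ratio 0.395). The IL-10-Fc and αCSF1R spleens shared with the control a larger part of Trbv29 in the larger classes, with 26.3% and 21.1% above 10 UMIs. In the BF10 spleen the share ran from 8.07% to 12.0% over the 5 classes. Counted as clonotypes, 504 Trbv29 clonotypes had over 5 UMIs in the control and 155 in the BF10 spleen, which was 22.3% (20.6 to 24.0) of the 2264 and 11.2% (9.56 to 12.9) of the 1388 clonotypes of that size. The IL-10-Fc and αCSF1R spleens held 398 of 1679 and 670 of 3541.

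Trav14 followed the same course. Its share was 14.6% and 13.9% among clonotypes of 1 UMI, 20.3% and 11.8% among those of 6 to 10 UMIs (ratio 0.582), and 24.0% and 14.5% above 10 UMIs (ratio 0.605). Above 10 UMIs the IL-10-Fc and αCSF1R spleens stood at 23.6% and 27.7%. Of the control clonotypes with over 5 UMIs 20.7% used Trav14, against 11.9% in the BF10 spleen. Trbv19 stood at 10.7% and 9.999% among clonotypes of 3 to 5 UMIs and at 17.3% and 8.03% above 10 UMIs. Trbv13-1 ran the other way in the larger classes, with 2.05% and 4.14% at 6 to 10 UMIs and 1.92% and 6.59% above 10 UMIs. A pair of clonotypes of 76 and 50 UMIs gave much of the latter, and with clonotypes of at least 50 UMIs left out of both libraries the shares were 1.99% and 3.25%. Trbv29 then stood at 27.8% and 12.8%. The files do not pair α with β chains, so that whether Trbv29 and Trav14 came from the same cells could not be seen.

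**Figure D3:**
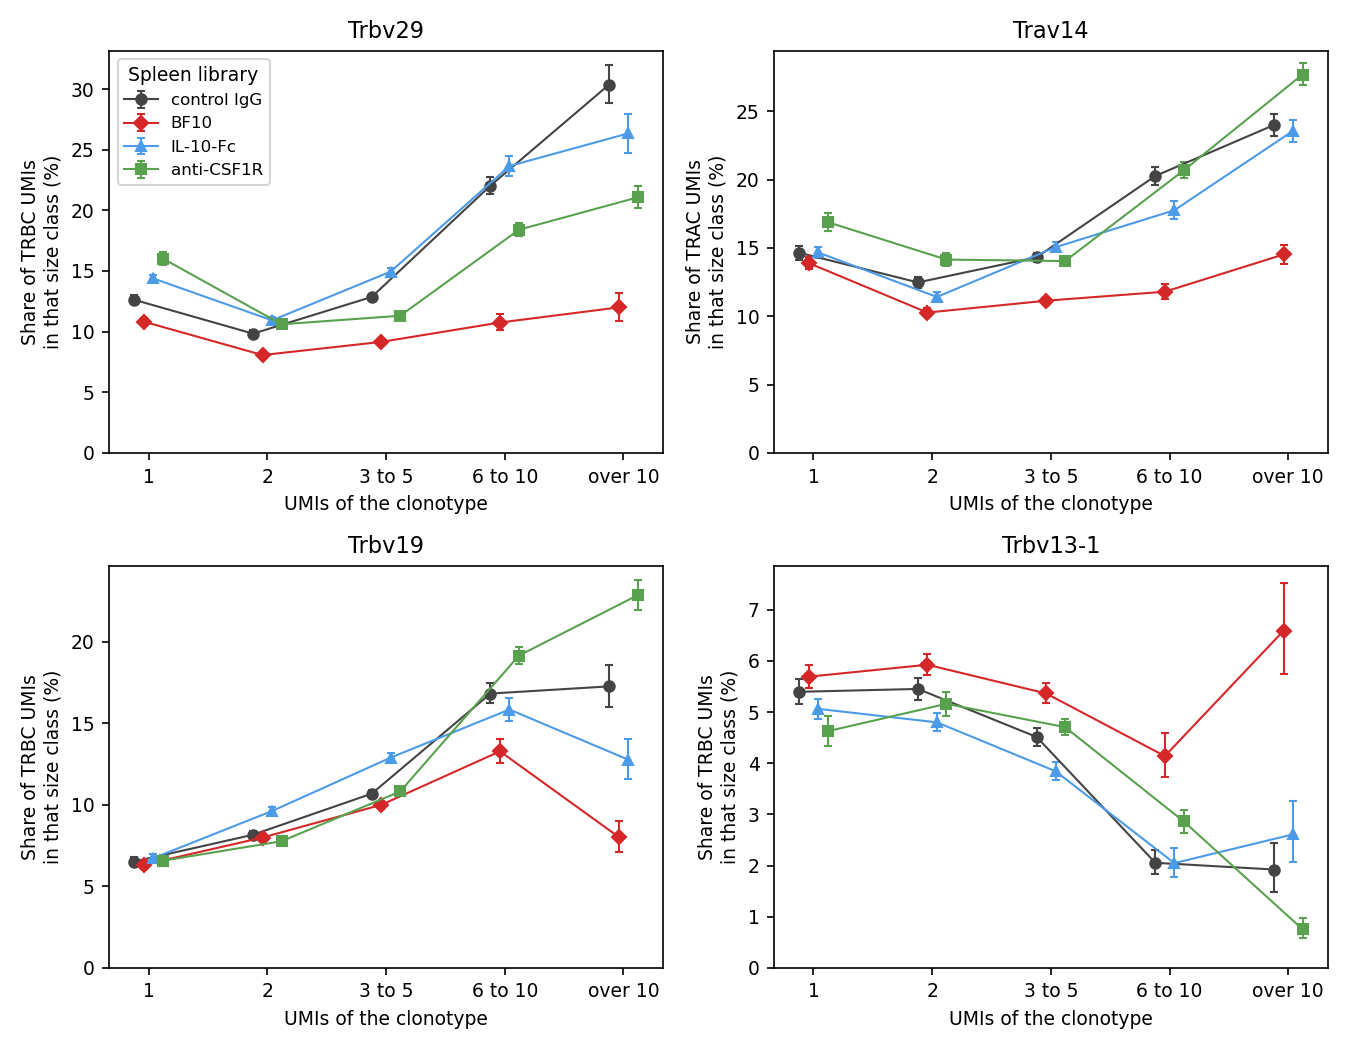
Share of the UMIs of each clonotype size class (x axis, UMIs of the clonotype) that used Trbv29, Trav14, Trbv19 or Trbv13-1 in the 4 spleen libraries, with bars for the exact 95% interval of counting error. Above 10 UMIs Trbv29 stands at 30.4% in the control and 12.0% in the BF10 spleen.

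The BF10 spleen held more and smaller clonotypes than the control. At 150372 TRBC UMIs each, 73638 clonotypes were expected in the control and 80430 in the BF10 spleen (ratio 1.09). The IL-10-Fc and αCSF1R spleens stood on either side, with 87356 and 59963. At 115039 TRAC UMIs the numbers were 47400 and 52132 (ratio 1.10). A β clonotype had 2.06 UMIs on average in the control and 1.87 in the BF10 spleen. Clonotypes of 1 UMI held 21.5% of the control and 26.5% of the BF10 TRBC UMIs. Those of 6 to 10 UMIs held 9.33% (9.19 to 9.48) and 5.62% (5.51 to 5.74). The order of the 4 libraries in clonotype number was the reverse of their order in the share of UMIs with at least 7 reads, and the part of sequencing depth per UMI in it was not tested. Restricted to clonotypes of at least 2 UMIs, the expected TRBC numbers were 41179 and 40606, and the ratio was 0.986.

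At the top of the ranking the order was reversed in β chains. The 10 largest TRBC clonotypes held 0.278% (0.252 to 0.305) of the control and 0.515% (0.479 to 0.552) of the BF10 UMIs, a ratio of 1.85. With clonotypes defined by CDR3 residues alone the ratio was 1.40. The corresponding shares were 0.188% under IL-10-Fc and 0.735% under αCSF1R, so that the BF10 value lay within the range of the other treated spleens. Clonotypes of over 50 UMIs numbered 1 in the control and 6 in the BF10 spleen, with 0 and 5 under IL-10-Fc and αCSF1R. In α chains the 10 largest clonotypes held 1.40% and 1.23% (ratio 0.876), whereas clonotypes of over 50 UMIs numbered 17 (1.76% of UMIs) in the control and 26 (2.05%) in the BF10 spleen.

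The 5 largest β clonotypes of each spleen were not listed in the other. Of all TRBC clonotypes, only 11.2% of those of the control and 10.3% of those of the BF10 spleen were found in both. Of the 100 largest, 67 of the control were listed in the BF10 spleen and 59 of the BF10 spleen in the control. The Trbv5-Trbj1-4 chain had 258 UMIs in the BF10 spleen, or 0.172% (0.151 to 0.194), and 0 in the other 3 spleens. A count of 0 allows up to 0.00196% of the control UMIs, so it was at least 87.8-fold higher under BF10. Trbv26-Trbj1-3 had 85 UMIs, 28.9 times the limit of 3 UMIs. Trbv13-1-Trbj1-1 and Trbv16-Trbj2-3 had 76 UMIs each, and Trbv1-Trbj1-1 had 59, all with 0 in the control. The Trbv13-1 chain had only 1 base outside its germline ends, whereas that of Trbv16 had 14. In the control, Trbv29-Trbj1-1 had 118 UMIs, with 21 bases outside the germline ends, and its share was 38.5 times the limit in the BF10 spleen. Trbv29-Trbj2-5 followed with 49 UMIs, Trbv15-Trbj2-2 with 45, Trbv1-Trbj2-1 with 43 and Trbv29-Trbj2-1 with 39, and all had 0 UMIs in the BF10 spleen. Of the 5 largest control β clonotypes 3 used Trbv29, against 0 of the 5 largest of the BF10 spleen.

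Each of the 5 largest β chains of either spleen was found again in another tissue of the same treatment, and some also under IL-10-Fc. The labels do not say whether tissues came from the same mice. All 5 of the BF10 chains printed above were listed in the BF10 tdLN, with 50, 21, 4, 27 and 16 UMIs in the order given, and 0 to 1 UMI of each in the BF10 tumor. The Trbv1-Trbj1-1 chain also had 3 UMIs in the IL-10-Fc spleen and 3 in the IL-10-Fc tumor, and the other 4 were listed in no library of another treatment. The control Trbv29-Trbj1-1 chain had 34 UMIs in the control tumor and 0 in the control tdLN, and the Trbv15-Trbj2-2 chain had 235 UMIs in the control tumor and 7 in the control tdLN. Trbv29-Trbj2-5 had 10 UMIs in the control tdLN. Trbv1-Trbj2-1 had 1 UMI in the control tdLN and 2 in the IL-10-Fc spleen. Trbv29-Trbj2-1 had 3 and 38 UMIs in the control tdLN and tumor, with 1 and 6 in the IL-10-Fc spleen and tumor. Of the 100 largest TRBC clonotypes of the BF10 spleen, 90 were listed in the BF10 tdLN, against 56 in the control, 60 in the IL-10-Fc and 63 in the αCSF1R tdLN. In the BF10 tumor 73 were listed. These counts were not set against the depth of each library or the share of all BF10 spleen clonotypes that it listed. Of the 100 largest of the control spleen, 66 were listed in the control tdLN and 75 in the BF10 tdLN, with 63 in the IL-10-Fc and 67 in the αCSF1R tdLN. By these counts, which carry the same limit, the control tdLN did not list the most of them.

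**Figure D4:**
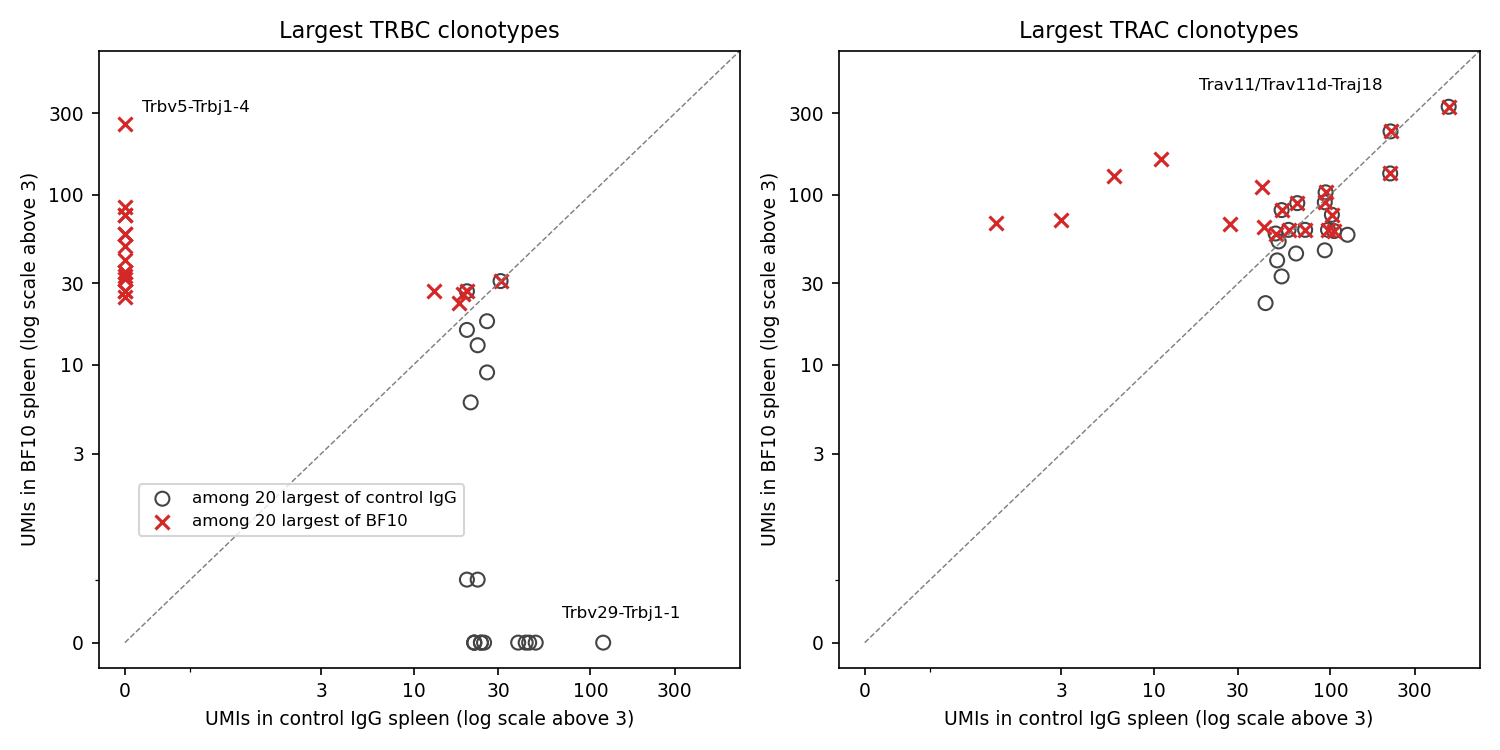
UMIs in the control IgG (x axis) and BF10 (y axis) spleens of the clonotypes among the 20 largest of either library, for TRBC (left) and TRAC (right), on axes that are linear up to 3 UMIs and logarithmic above, with the line of equal UMIs dashed. The largest β chains lie on the axes, at 258 and 0 UMIs for Trbv5-Trbj1-4, while all 20 of the largest α chains of each library were listed in the other.

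Large α chains were shared between the libraries. All 20 of the largest TRAC clonotypes of each library were listed in the other, against 9 of 20 and 5 of 20 for TRBC. By single V assignment, the chain with the most UMIs was that of invariant NKT cells, lipid-reactive T cells with a nearly fixed α chain. Its 15-residue CDR3 shown above had 467 UMIs in the control and 328 in the BF10 spleen, or 577 and 404 summed over V assignments. It had no base outside the germline ends. The same CDR3 residues as in the Traj22 chain shown, also without such bases, were listed under several Trav assignments. Summed over all of them they had 852 UMIs in the control (0.741%) and 629 in the BF10 spleen (0.530%), with 969 and 813 under IL-10-Fc and αCSF1R. The largest assignment, Trav14-2 or Trav14n-2, stood at 219 and 235 UMIs, whereas Trav14d-3-dv8 or Trav14n-3 stood at 218 and 133. Among the 5 largest α chains of the BF10 spleen, 2 stood over 10-fold higher there. Trav16n-Traj42 (17 residues) had 11 and 161 UMIs (14.2-fold, 7.70 to 26.1), with 3 and 0 under IL-10-Fc and αCSF1R. Trav7d-2-Traj31 had 6 and 129 UMIs (20.8-fold, 9.19 to 47.2), with 1 and 8. Summed over V assignments, the CDR3 residues of the Traj42 chain had 11 and 168 UMIs, with 9 and 3 under IL-10-Fc and αCSF1R. Those of the Traj31 chain had 11 and 142, with 15 and 28. The next, Trav6d-6-Traj30, had 41 and 110 UMIs (2.60-fold, 1.82 to 3.72), with 75 and 40. Summed over V assignments, its CDR3 residues had 91 and 178 UMIs, with 122 and 64. Further down the 20 largest, by single V assignment, Trav14-1 or Trav14n-1 with Traj12 had 3 and 71 UMIs (22.9-fold, 7.22 to 72.8). Trav6d-6-Traj21 had 2 and 68 (32.9-fold, 8.07 to 134.4), and a Trav8-1-Traj22 chain had 27 and 67 (2.40-fold, 1.54 to 3.76).

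The public Trbv1-Trbj1-1 β chain found in all libraries had 31 UMIs in both spleens, 47 under IL-10-Fc and 20 under αCSF1R. It was encoded by 10 nucleotide sequences in the control and 8 in the BF10 spleen, whereas the private Trbv5-Trbj1-4 chain had 1. In all, 8294 TRBC clonotypes were found in both spleens, 11.2% of those of the control and 10.3% of those of the BF10 spleen. They held 14.97% and 14.3% of the UMIs. For TRAC 8950 were found in both, 18.9% and 16.9% of the clonotypes and 30.5% and 28.8% of the UMIs. Shared β clonotypes had fewer bases outside the germline ends, which for β chains include the D segment. The mean over UMIs was 7.81 in the control and 7.79 in the BF10 spleen for clonotypes found in both, and 10.4 in each for the rest. For α chains with an undivided V assignment the means were 1.78 and 1.80 against 3.57 and 3.52. Over all clonotypes the 2 spleens were alike in this measure, at 9.971 and 10.002 bases for TRBC and 2.99 and 2.99 for TRAC.

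CDR3 length differed by a small fraction of a residue. The mean over TRBC UMIs was 13.87 residues in the control (SD over UMIs 1.92) and 13.89 in the BF10 spleen (2.13), a difference of 0.0200 with a half-width of 0.0144 from counting error. It was 0.0111 without CDR3s of over 30 residues (31 and 46 UMIs) and 0.00876 with clonotypes of at least 2 UMIs, both within that half-width. For TRAC the means were 13.55 and 13.56, a difference of 0.0120 with a half-width of 0.0114, or 0.00215 with each clonotype counted once. The IL-10-Fc and αCSF1R spleens differed from the same control by 0.00451 and 0.0234 residues for TRBC. The most frequent length was 14 residues in both chains, with 31.6% and 31.2% of TRBC and 31.5% and 31.5% of TRAC UMIs. CDR3s of 17 residues stood at 1.95% and 2.17% in TRBC (2.19% and 2.48% in the IL-10-Fc and αCSF1R spleens) and at 1.36% and 1.60% in TRAC (1.49% and 1.30%).

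**Figure D5:**
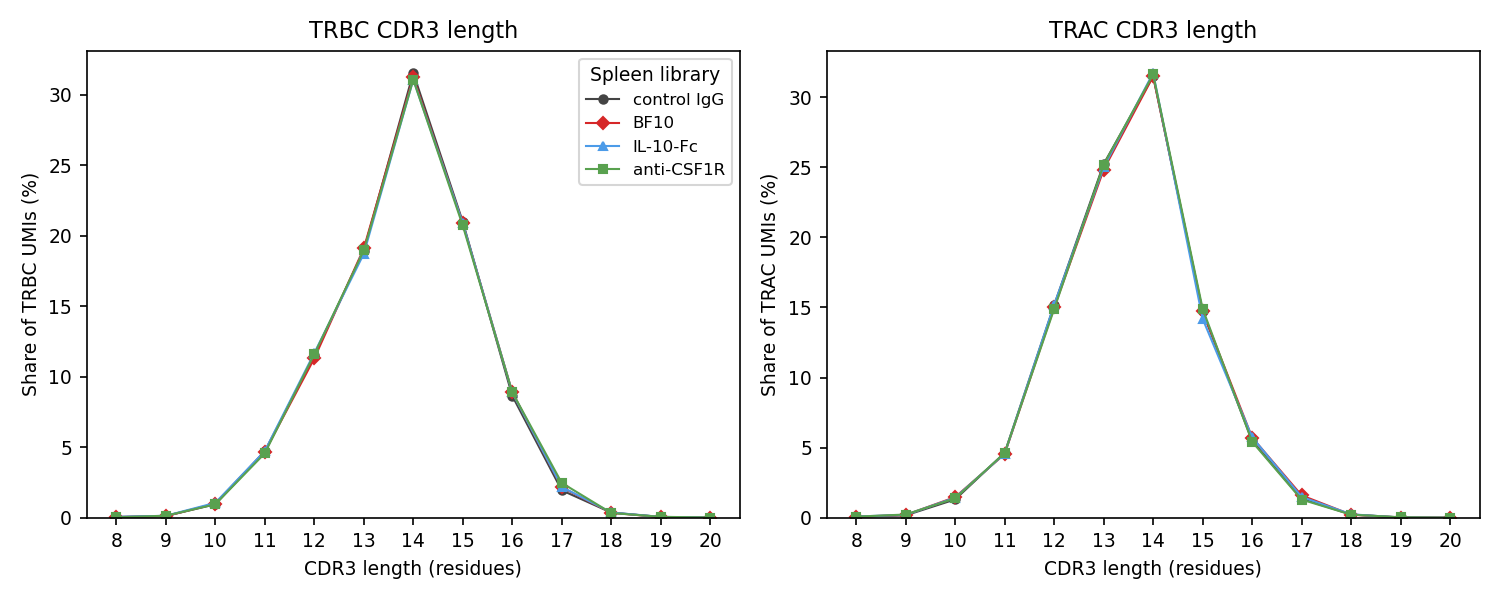
Share of TRBC (left) and TRAC (right) UMIs by CDR3 length in residues, from 8 to 20, with 1 line for each of the 4 pooled spleen libraries. The lines overlie one another, with 31.6% of control and 31.2% of BF10 TRBC UMIs at 14 residues.

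Chains of cells other than conventional αβ T cells were a small part of each library. γ (TRGC) and δ (TRDC) chains together made up 1.957% (1.91 to 2.01) of all UMIs in the control and 2.30% (2.25 to 2.36) in the BF10 spleen, a ratio of 1.18. They stood at 0.677% under IL-10-Fc and 1.79% under αCSF1R. The difference lay mainly in TRDC, with 2400 and 3192 UMIs (ratio 1.32), and less in TRGC, with 2959 and 3153 (1.06). Trgv2 was the main γ gene (46.0% and 43.8% of TRGC UMIs), and 14.03% and 13.5% of TRGC UMIs listed several genes. Trgv6 rested on 111 and 184 UMIs (3.75% and 5.84%). Among δ genes Trdv2-2 led (26.1% and 25.6% of TRDC UMIs), Trav13-4-dv7 stood at 9.75% and 13.3%, and Trdv4 at 42 and 120 UMIs (1.75% and 3.76%). The Trgv6-Trgj1 chain shown had 73 UMIs in the control and 126 in the BF10 spleen. The Trgv2-Trgj2 chain, the largest of the control by single V assignment, had 77 and 52 (ratio 0.634, interval 0.447 to 0.898). Summed over V assignments, the CDR3 residues of the Trgv6-Trgj1 chain had 82 and 130 UMIs, and those of the Trgv2-Trgj2 chain 77 and 53. The most abundant δ chain, Trdv4-Trdj2 with 17 residues, had 35 and 87. The Trgv6 and Trdv4 chains are known as the invariant chains of a γδ T cell of fetal origin. They had far more UMIs in the tdLN libraries, with 2558 and 5356 of the γ and 1361 and 2160 of the δ chain in the control and BF10 tdLN. Shares of the tdLN UMIs were not compared. The titles of the tdLN libraries, unlike those of the spleen, do not name CD8 cells, so the cells used may differ.

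The invariant NKT α chain (Trav11 or Trav11d with Traj18) held 0.464% (0.426 to 0.505) of TRAC UMIs in the control, 0.325% (0.293 to 0.359) in the BF10, 0.0454% in the IL-10-Fc and 0.507% in the αCSF1R spleen. The ratio of BF10 to control was 0.7003 (0.614 to 0.798). Without its largest clonotype it was 0.839. The MAIT-type chain (Trav1 with Traj33), which marks T cells that recognize vitamin B2 metabolites, rested on 23 and 8 UMIs (0.337, interval 0.151 to 0.753), with 13 and 15 in the IL-10-Fc and αCSF1R spleens.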

How the data were processed

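Total RNA of bead-isolated CD8 T cells was made into TCR libraries with a UMI kit that primes from the α, β, γ and δ constant regions. The authors deposited 1 table per tissue that lists, for each library, chain, V, J and CDR3, the counts of UMIs supported by at least 3 to at least 7 reads. The deposited frequency column is a fraction, the UMIs of a clonotype over the total of its chain, and it was used only to check those totals. The build named in the submitters' notes is mm10. The aligner is not given in the sources used here.

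Counts with at least 3 reads were summed by segment. V assignments with several genes were split equally, and Trav genes were joined by subgroup number. Named were the 3 highest in the control and the 5 largest and 5 smallest ratios among segments with a mean share of at least 0.5% (pairs, 0.05%), and the 5 largest clonotypes of each library (1 for γ and δ). A few others were named after their values were seen. Clonotypes at equal UMIs are analytic rarefaction. Germline ends came from the GRCm38 genome at GENCODE M21 positions. Exact intervals are Clopper-Pearson at 95%, and a count of 0 was given a limit of 3 UMIs. Scripts ran in Python 3.11.15 with pandas 2.3.3, numpy 2.4.6, scipy 1.17.1 and matplotlib 3.10.9 and were tested on simulated data. Clonotypes with undetermined residues (112 in the control and 132 in the BF10 spleen) were left out of lengths. The lists and comparisons were chosen with earlier results of these data known. Alternatives changed the reads per UMI, the weight and definition of a clonotype, the handling of large, small and ambiguous clonotypes, the fold and the minimum share.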

Additional observations from a re-analysis of the deposited data

Results flagged for a closer look

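The ratios of BF10 to control for Trbv29 and Trav14 ran in opposite directions in the spleen and in the other tissues. With 1 library per tissue and treatment this difference was not tested. The ratio of BF10 to control for Trbv29 was 0.713 in the spleen, 1.19 in the tdLN (6.76% and 8.02%) and 2.45 in the tumor (5.91% and 14.5%). For Trav14 it was 0.758 in the spleen, 1.07 in the tdLN (15.7% and 16.9%) and 1.67 in the tumor (8.97% and 14.9%). Under IL-10-Fc and αCSF1R Trbv29 stood at 7.48% and 7.84% in the tdLN and at 13.2% and 5.01% in the tumor. Trav14 stood at 16.1% and 17.2% in their tdLN and at 14.4% and 12.5% in their tumor. The control was thus the lowest of the tdLN libraries for both, and the IL-10-Fc tumor lay near the BF10 tumor.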

How the results depend on the processing

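No paired analysis was possible because each treatment had 1 spleen library. The number of Trbv genes past the fold was 2 with UMIs of at least 7 reads, 0 with each clonotype counted once, 3 with clonotypes of at least 2 UMIs, 0 at 1.5-fold and 2 at a minimum share of 0.1%. That of Trav subgroups was 0 with each clonotype counted once and 0 at 1.5-fold. Trbv-Trbj pairs numbered 2 with each clonotype counted once, 16 with clonotypes of at least 2 UMIs and 2 at 2-fold. Trav-Traj pairs numbered 51 with at least 7 reads, 13 with each clonotype counted once, 50 with clonotypes of at least 2 UMIs, 1 at 2-fold and 4 at a minimum share of 0.2%. The ratio of clonotypes at equal UMIs was 1.06 (TRBC) and 1.06 (TRAC) with at least 7 reads, and 0.986 (reversed) and 1.03 with clonotypes of at least 2 UMIs. That of the 10 largest was 1.40 (TRBC) and 0.797 (TRAC) by CDR3 residues alone. Shared clonotypes numbered 3917 (TRBC) and 4243 (TRAC) with at least 7 reads, 3524 and 4836 with at least 2 UMIs, and 2786 (TRBC) by nucleotides. The invariant NKT ratio was 0.538 with each clonotype counted once and 0.839 without the largest. Single ratios turned for Traj12 (0.969) and Trav16-Traj42 (0.997), both with each clonotype counted once. Over the alternatives Trbv29 ran from 0.667 to 0.802 and Trav14 from 0.717 to 0.854. CDR3 length differences kept their sign in every setting tried, also without CDR3s of over 30 residues, a setting chosen after seeing the data. Of the main results under the alternatives, 55 values lay within the counting interval of the reported value (counts, within 1.5 times), 27 moved and 1 turned. Leaving out clonotypes of at least 50 UMIs was also chosen after seeing the data. The cause of the changes was not tested. With 1 pooled library of 3 mice on each side, differences between mice, pools and treatments cannot be told apart.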
